A study of Mus musculus with 4 samples.

Results

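Transcripts of 8 cholesterol synthesis genes were followed in myeloid-derived suppressor cells (MDSCs) generated in vitro from mouse bone marrow. The 8 genes, Hmgcs1, Idi1, Fdps, Fdft1, Sqle, Lss, Insig1 and Srebf2, were taken by their symbols from the 32285 genes in the count files. They were chosen with earlier results of these data known, and all 8 passed the minimum of 50 UMIs used for ratios. The study asked whether β-adrenergic signaling alters MDSCs. Bone marrow cells of C57BL/6 mice were cultured for 4 days with GM-CSF and IL-6, each at 40 ng/ml. Live CD11b+ cells were sorted and profiled by single-cell RNA sequencing on the 10X platform, in 1 library per group. The study's methods describe feature barcodes on the cells and cell suspensions that were pooled before capture. A library here means the cells deposited for 1 group, and whether all groups shared 1 pool is not given in the sources used here.

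The 4 libraries were WT+PBS (WT cells, 0 µM isoproterenol), WT+ISO (WT cells, 10 µM isoproterenol, a pan-β-adrenergic agonist), KO+PBS and KO+ISO (cells labelled KO, at 0 and 10 µM). ISO was given from the start of culture and renewed each day, and all 4 cultures shared the cytokines. The KO label stands for a knockout line on the C57BL/6 background. An age of 6 to 10 weeks is given for the mice of all experiments, and the number of animals behind each culture is not given in the sources used here. The treatment field of the sample labels names isoproterenol for all 4 libraries, which conflicts with the sample titles and the study's methods. The titles and methods were followed. KO+PBS and KO+ISO are called the libraries labelled KO.

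After filtering, the libraries held 2039 to 2790 cells and 19357824 to 29400468 UMIs, with medians of 7484 to 10252 UMIs per cell, the highest in WT+ISO. No barcode was shared between libraries (0 of 9525). Markers of mature neutrophils were abundant in all 4 (106312 to 131023 UMIs per 1000000 UMIs of the library, CPM, summed over 7 genes), those of monocytes were present (1527 to 1969 CPM over 6 genes), and 3 erythroid markers were at 0 in every library. No group had a second library, so no test was made. CPM of UMIs counts tagged transcripts and is not divided by gene length. The 95% intervals given here reflect the counting of UMIs alone and leave out the spread between cells, animals or cultures.

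Cholesterol is made from acetyl-CoA through mevalonate, isoprenoids and squalene. When the membranes of the endoplasmic reticulum run low in sterol, the transcription factor SREBP2, encoded by Srebf2, is carried by Scap to the Golgi apparatus, cut there and released, and it activates genes of this route together with genes for the uptake of lipoprotein cholesterol. Insig1 encodes an anchor that holds Scap and SREBP2 back when sterol is plentiful, and it is itself a target of SREBP2. In macrophages and other myeloid cells the route is opposed by the liver X receptors, which act on the efflux pumps Abca1 and Abcg1.

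Promoter sequences were held for 5 of the 8 genes (Hmgcs1, Idi1, Insig1, Lss and Srebf2) in a RefSeq table of GRCm38.p6, the assembly named mm10 in the labels. The 250 bases upstream of the start are printed for 4 of them, since Idi1 and Insig1 varied with the other genes across clusters whereas Srebf2 and, in part, Hmgcs1 did not. All 4 genes lie on the plus strand, and sequences run 5′ to 3′. Capitals mark TCACNCCA, a core of the sterol regulatory element, and CCAAT, the box bound by NF-Y, on either strand. CCAAT on the opposite strand reads ATTGG.
Hmgcs1, chr13:119690101-119690350: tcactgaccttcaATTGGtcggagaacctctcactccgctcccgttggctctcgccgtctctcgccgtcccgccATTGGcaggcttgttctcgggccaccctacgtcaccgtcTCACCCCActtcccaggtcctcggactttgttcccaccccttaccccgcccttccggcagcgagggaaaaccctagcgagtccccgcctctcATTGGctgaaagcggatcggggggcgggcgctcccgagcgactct
Srebf2, chr15:82147019-82147268: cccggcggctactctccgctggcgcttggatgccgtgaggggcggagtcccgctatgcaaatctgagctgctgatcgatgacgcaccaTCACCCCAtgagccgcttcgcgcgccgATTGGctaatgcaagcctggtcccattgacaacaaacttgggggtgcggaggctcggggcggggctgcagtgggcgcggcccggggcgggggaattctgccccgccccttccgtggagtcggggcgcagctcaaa
Idi1, chr13:8885356-8885605: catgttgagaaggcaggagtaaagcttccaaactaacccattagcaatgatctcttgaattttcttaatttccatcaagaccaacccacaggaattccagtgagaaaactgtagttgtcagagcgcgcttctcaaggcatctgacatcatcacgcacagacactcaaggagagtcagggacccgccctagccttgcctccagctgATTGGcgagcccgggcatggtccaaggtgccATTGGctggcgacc
Insig1, chr5:28071162-28071411: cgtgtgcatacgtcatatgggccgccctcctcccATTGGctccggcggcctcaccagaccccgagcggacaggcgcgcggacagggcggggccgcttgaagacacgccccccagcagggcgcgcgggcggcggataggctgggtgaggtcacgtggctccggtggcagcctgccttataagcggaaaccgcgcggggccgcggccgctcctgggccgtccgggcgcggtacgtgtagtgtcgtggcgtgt

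TCACNCCA was found in 2 of the 5 windows, starting 137 bases before the start of Hmgcs1 and 162 bases before that of Srebf2, and in 3.67% of all 32851 windows of this length. CCAAT was found in all 5 windows, once each in Insig1, Lss and Srebf2, in 2 places in Idi1 and in 3 places in Hmgcs1, each time on the strand opposite to the gene. It was present in 33.8% of all windows. GGGCGG, a box bound by Sp1, was also found in all 5, against 32.7% of all windows. The letters of CACGTG were found in Insig1 alone among the 5, against 6.02% of all windows. These matches describe the windows and do not show binding.

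Fdps, which encodes farnesyl diphosphate synthase at the branch point between sterols and isoprenoids, was the most abundant of the 8 transcripts in every library. Its level was 546 CPM in WT+PBS, 675 in WT+ISO, 507 in KO+PBS and 533 in KO+ISO. It held 66.7%, 69.8%, 65.3% and 65.1% of the UMIs of the 8 genes in the same order, so any sum over the 8 follows Fdps. For this reason sums are given with and without it. At least 1 UMI of Fdps was found in 61.1% of the cells of WT+PBS and 72.2% of WT+ISO. After every cell was thinned to 2000 UMIs, which left out 127 to 218 cells per library, the shares were 39.9% (95% exact interval 37.8 to 42.1) and 50.1% (47.9 to 52.2), with 39.2% in KO+PBS and 43.6% in KO+ISO.

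The other genes stood between 7.25 and 85.9 CPM. Hmgcs1, the synthase that commits acetyl units to the mevalonate route, was at 44.97 CPM in WT+PBS, 45.5 in WT+ISO, 45.5 in KO+PBS and 45.7 in KO+ISO. No library stood apart for Hmgcs1. Idi1, the isomerase that supplies the isoprenoid building block, was at 44.2, 52.9, 38.7 and 43.8 CPM in the same order, highest in WT+ISO and lowest in KO+PBS. Fdft1, which makes squalene, was at 38.5, 38.7, 37.4 and 41.4 CPM, with intervals that all overlapped. Sqle, the epoxidase that acts on squalene, was at 36.4, 46.1, 37.6 and 39.0 CPM, highest in WT+ISO. Its interval in WT+ISO (43.6 to 48.6) lay above those of the other 3 libraries.

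Lss, the cyclase that makes lanosterol, was the least abundant, at 8.77 CPM in WT+PBS, 9.05 in WT+ISO, 7.25 in KO+PBS and 8.37 in KO+ISO, from 162 to 266 UMIs. Its 4 intervals overlapped. Insig1 was at 25.2, 28.1, 24.2 and 21.3 CPM, with the lowest level in KO+ISO. Srebf2 was at 74.7, 71.4, 78.7 and 85.9 CPM, and its order was the reverse of that of Insig1. Summed over the 7 genes without Fdps, the level was 273, 292, 269 and 285 CPM.

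**Figure D1:**
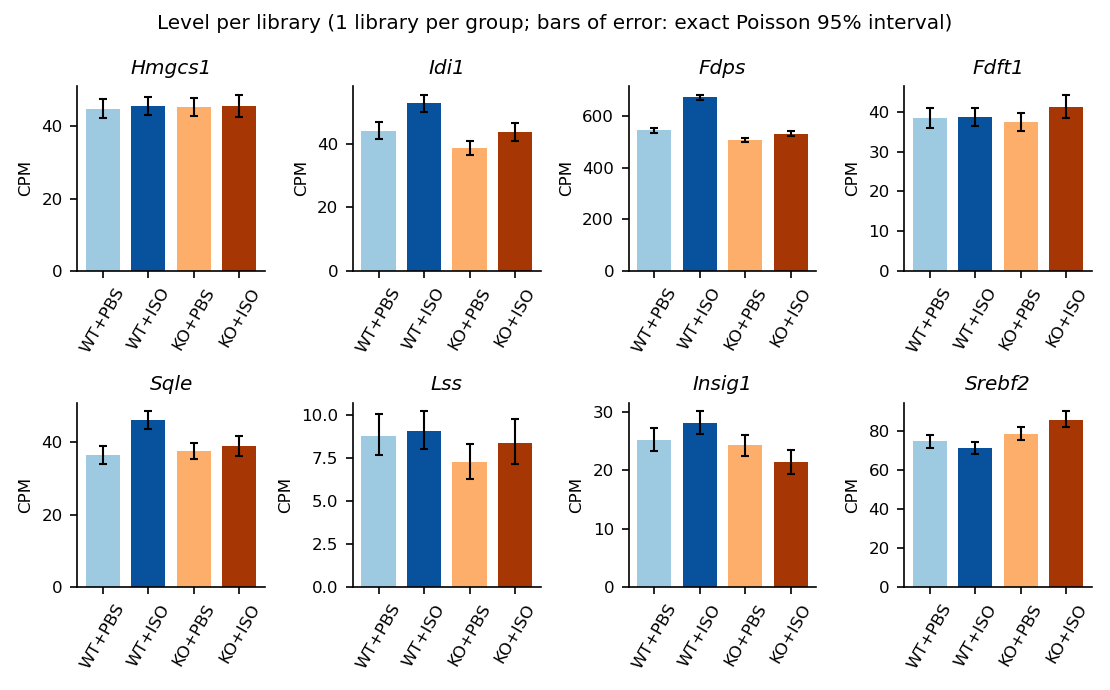
Level of each of the 8 genes in CPM (vertical axes, from 0) in the 4 libraries, 1 library per group, with exact Poisson 95% intervals that cover counting error only. Fdps was at 507 to 675 CPM and highest in WT+ISO, Hmgcs1 was at 44.97 to 45.7 CPM in all 4, and Srebf2 was highest in KO+ISO.

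Some of these counts may be shared with other loci. Pseudogenes were sought in the annotation of GRCm39 by name alone. It lists 5 named after Idi1, of which 0 are among the counted genes, so the values of Idi1 are uncertain to that extent. Copies of Fdps or of any other member under unrelated names would have been missed. Exons of Sqle overlap those of Washc5 on the opposite strand, Fdft1 overlaps Ctsb, Hmgcs1 overlaps Nim1k and Srebf2 overlaps Shisa8. The strand setting of the counting is not given in the sources used here.

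The comparison of ISO with PBS asked whether the agonist moved these transcripts, in WT cells and in those labelled KO. A ratio was called past the fold at a difference of 0.5 or more on the log2 scale. In WT cells 0 of the 8 genes were past the fold in either direction, against 2.67% of the 11852 genes tested that were higher and 8.31% that were lower. In the libraries labelled KO the count was also 0 of 8, against 2.12% higher and 2.7% lower of 11849 genes. The differences between libraries were thus small for every member.

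In WT cells 7 of the 8 genes had a ratio above 0, with a median log2 ratio of 0.10, whereas 46.6% of all genes tested lay above 0 and their median was −0.02. Sqle had the highest ratio (0.34, 95% interval 0.21 to 0.46), followed by Fdps (0.30, 0.27 to 0.34), Idi1 (0.26, 0.15 to 0.37) and Insig1 (0.16, 0.0044 to 0.31). The intervals of Lss (0.04), Hmgcs1 (0.02), Fdft1 (0.01) and Srebf2 (−0.06) spanned 0. At a fold of 0.25 on the log2 scale, 3 of the 8 were higher (Sqle, Fdps and Idi1), against 10.7% of all genes, and 0 were lower, against 19.8%.

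In the libraries labelled KO, 7 of the 8 genes again lay above 0, with a median of 0.10, against 39.8% of all genes and a median of −0.04. The genes were ordered differently. Lss had the highest ratio (0.21) with an interval that spanned 0, and those of Idi1 (0.18, 0.05 to 0.31), Fdft1 (0.15, 0.01 to 0.28), Srebf2 (0.13, 0.04 to 0.22) and Fdps (0.07, 0.03 to 0.11) lay above it. Sqle had 0.05 and Hmgcs1 0.01. Insig1 was lower with ISO (−0.18, −0.36 to −0.0037). At a fold of 0.25, 0 of the 8 were higher, against 7.49% of all genes, and 0 lower, against 10.7%.

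The difference between the log2 ratios, WT minus KO, was 0.34 for Insig1 (95% interval 0.11 to 0.57), 0.29 for Sqle (0.10 to 0.47), 0.23 for Fdps (0.19 to 0.28) and −0.19 for Srebf2 (−0.32 to −0.06). For Idi1, Hmgcs1, Fdft1 and Lss the interval of the difference spanned 0. Summed over the 8 genes, the log2 ratio was 0.24 in WT (0.21 to 0.27) and 0.08 in the libraries labelled KO (0.05 to 0.11), a difference of 0.16. Without Fdps the ratios were 0.10 (0.05 to 0.14) and 0.08 (0.03 to 0.13), a difference of 0.01 with an interval from −0.05 to 0.08. The larger summed ratio in WT therefore came from Fdps.

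**Figure D2:**
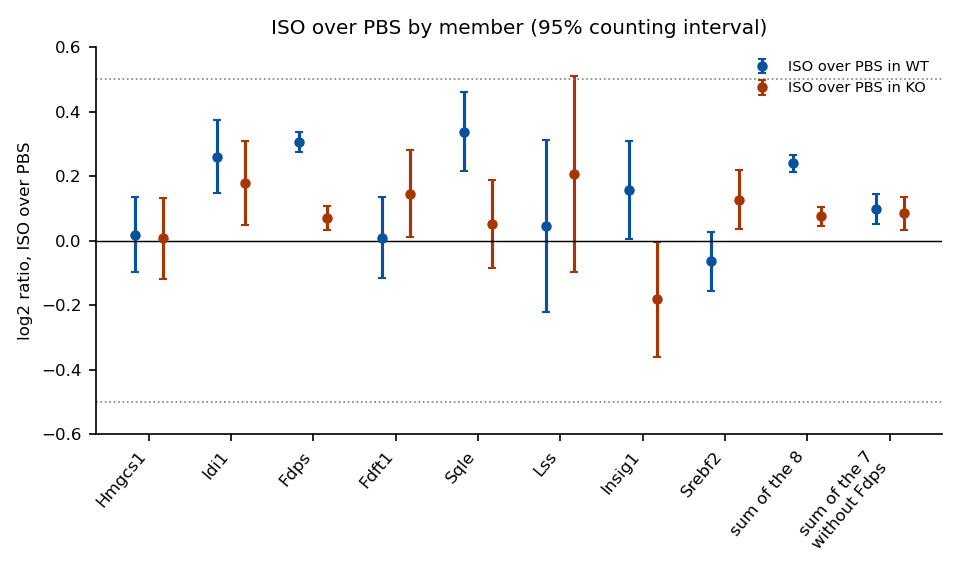
Log2 ratio of ISO over PBS (vertical axis) for each gene and for the sums with and without Fdps, in WT and in the libraries labelled KO, with 95% counting intervals and dotted lines at the fold of 0.5. No point reached the fold, Fdps and Sqle were higher in WT than in KO, and Insig1 lay on opposite sides of 0.

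The cells of all libraries were clustered together without the 8 genes and without the other genes of the lists described here, which gave 10 clusters. Of these, 8 held at least 20 cells in every library. Their names rest on marker transcripts. They were an azurophil-granule neutrophil progenitor-like cluster led by Mpo (465 cells), specific-granule neutrophil-like clusters with Camp and Fcnb (814 cells) and with Ltf (1725 cells), a mature neutrophil-like cluster with Retnlg (1020 cells), a macrophage-like cluster led by Mrc1 (1975 cells), which also met the rule for monocytes, and 3 unnamed clusters marked by Stfa2 (719 cells), Kcnq5 (647 cells) and Gpnmb (1835 cells). The median cell of the Gpnmb cluster held 0.376 of its library's median UMIs. The other 2 clusters were dendritic cell-like and held 79 and 24 cells.

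Fdps followed a steep order across the neutrophil-like clusters. Its mean level over the 4 libraries was 1335 CPM in the Mpo cluster (1222 to 1458), 1099 in the Camp cluster (1021 to 1205), 670 in the Kcnq5 cluster, 660 in the Stfa2 cluster and 629 in the Ltf cluster, then 220 in the macrophage-like cluster (207 to 241), 117 in the mature neutrophil-like cluster and 77.7 in the Gpnmb cluster. The first was 17.2-fold above the last. The ranges over libraries did not overlap between the Mpo, the Camp and the next cluster, nor between the Ltf, the macrophage-like and the mature neutrophil-like clusters, whereas the Kcnq5, Stfa2 and Ltf clusters overlapped and so did the last 2. Per cell, Fdps had a mean of 32.5 UMIs in the Mpo cluster and 0.553 in the mature neutrophil-like cluster. The Mpo cluster held 5.0% of all cells, 11.4% of all UMIs and 26.2% of all Fdps UMIs.

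The other enzymes were spread more evenly. The highest cluster mean exceeded the lowest 6.56-fold for Lss, 3.25-fold for Idi1, 2.4-fold for Sqle, 2.11-fold for Hmgcs1, 2.09-fold for Fdft1 and 1.66-fold for Insig1. The fold of Lss is uncertain, since its lowest cluster, the mature neutrophil-like, had a mean of 1.75 CPM (0 to 5.06 over libraries). Idi1 stood at 54.1, 53.4 and 52.0 CPM in the Kcnq5, macrophage-like and Mpo clusters, at 21.9 in the mature neutrophil-like cluster and at 16.7 in the Gpnmb cluster. Sqle was at 50.7 CPM in the macrophage-like cluster and at 21.7 and 21.1 in the mature neutrophil-like and Gpnmb clusters. Fdft1 was level at 40.4 to 43.0 CPM in 6 clusters and lower in the mature neutrophil-like (22.1) and Gpnmb (20.6) clusters, with ranges that did not overlap those of the 6. Most other neighbours in these orders overlapped. Hmgcs1 alone had its highest mean in the Ltf cluster (57.0 CPM), and was at 31.6 CPM in the Mpo cluster, where Fdps was highest.

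Srebf2, the regulator, had a flatter and different order. It was highest in the macrophage-like cluster (93.2 CPM, 86.4 to 99.3) and second in the mature neutrophil-like cluster (83.7, 78.5 to 92.9), where the enzymes other than Hmgcs1 were low, and it was lowest in the Mpo cluster (49.7, 42.4 to 56.0). Neighbours in this order overlapped throughout. Summed over the 7 genes without Fdps, the macrophage-like cluster led with 330 CPM (318 to 334), followed by the Kcnq5 cluster (301), and the Gpnmb cluster was last with 174. The choice of Fdps thus decided which cluster stood first, the Mpo cluster with it and the macrophage-like cluster without it, and both placings were the same at the lower and the higher clustering resolution.

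**Figure D3:**
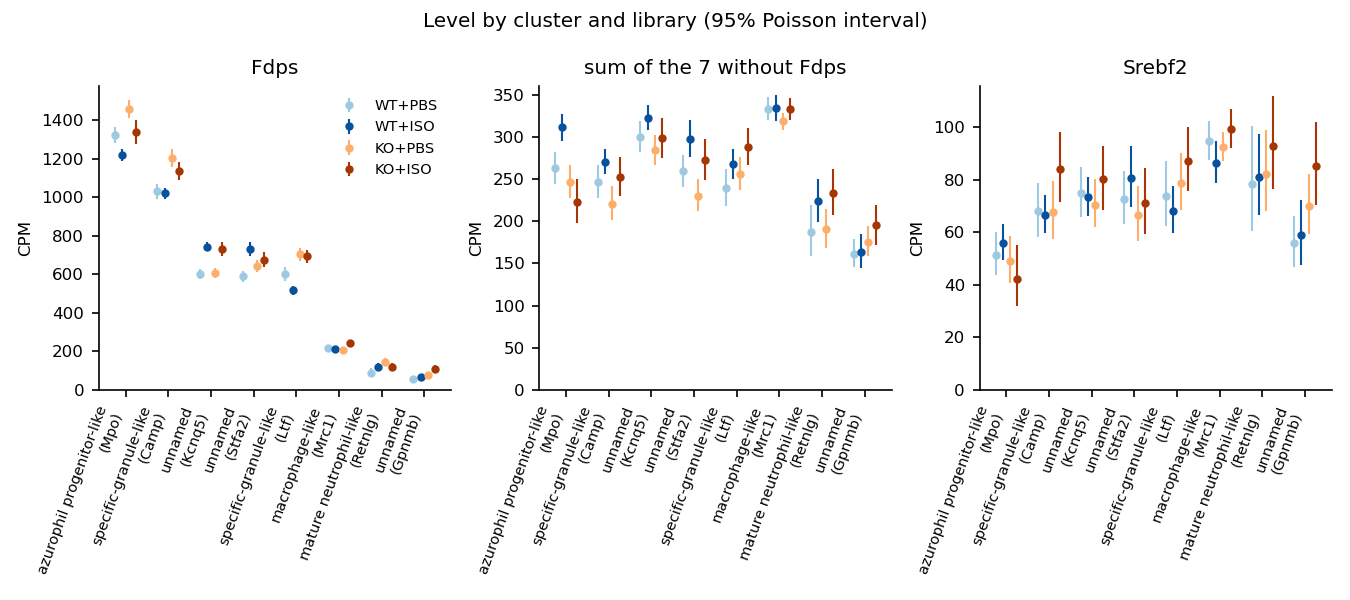
Level in CPM (vertical axes, from 0) of Fdps, of the 7 other genes summed and of Srebf2 in 8 clusters ordered by Fdps, 1 point per library with a 95% Poisson interval. Fdps went from a mean of 1335 CPM in the Mpo cluster to 77.7 in the Gpnmb cluster, whereas the sum of the other 7 was highest in the macrophage-like cluster and Srebf2 was lowest in the Mpo cluster.

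The libraries held these clusters in different proportions. The Mpo and Camp clusters, the highest in Fdps, accounted for 13.3% of cells in WT+PBS, 22.2% in WT+ISO, 9.89% in KO+PBS and 10.1% in KO+ISO, which ranks the libraries as the level of Fdps did. Their cells are rich in RNA, and they held 22.85%, 33.1%, 16.4% and 16.5% of all UMIs in the same order. They contributed 49.8%, 55.0%, 43.2% and 37.7% of the Fdps UMIs. The macrophage-like, mature neutrophil-like and Gpnmb clusters, the lowest in Fdps, made up 53.9%, 38.6%, 58.1% and 56.2% of the cells.

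Every library was then given the same proportions of the 8 clusters. For this, the CPM of each cluster was weighted by its share of cells over all libraries. Ratios over all cells pool UMIs instead, so the Gpnmb cluster (19.7% of cells, 7.39% of UMIs) counts for more at equal proportions. The log2 ratio of ISO over PBS for Fdps in WT was 0.02 in place of 0.30. In the libraries labelled KO it was 0.03 in place of 0.07. Within clusters, Fdps in WT was lower with ISO in the Ltf (−0.22, −0.33 to −0.11) and Mpo (−0.11, −0.17 to −0.06) clusters. It was higher in the Stfa2 (0.31, 0.21 to 0.41), Kcnq5 (0.31, 0.23 to 0.39) and mature neutrophil-like (0.41, 0.0013 to 0.84) clusters, and the intervals of the other 3 spanned 0. In the libraries labelled KO, Fdps was lower with ISO in the Mpo cluster (−0.12) and in the Camp cluster (−0.08), and higher in the Kcnq5 (0.27), macrophage-like (0.22) and Gpnmb (0.49) clusters. The intervals of the Mpo and Kcnq5 clusters lay on the same side of 0 in both genotypes.

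Sqle and Idi1 were different from Fdps in this respect. At equal proportions their ratios in WT were 0.35 and 0.27, close to the 0.34 and 0.26 over all cells. In WT, Idi1 was above 0 in 8 of 8 clusters (0.01 to 0.58), with intervals above 0 in 4, and Sqle in 6 of the 7 clusters with at least 50 UMIs (−0.05 to 0.47), with intervals above 0 in 3. In the libraries labelled KO, Idi1 was above 0 in 7 of 8 clusters and its ratio at equal proportions was 0.30, while that of Sqle was 0.19, against 0.05 over all cells. The sum of the 7 genes without Fdps was above 0 in 8 of 8 clusters in WT (0.0028 to 0.26, 2 intervals above 0) and in 7 of 8 in the libraries labelled KO (−0.14 to 0.30, 4 intervals above 0). The exception was the Mpo cluster labelled KO, with −0.14 (−0.35 to 0.06). At equal proportions 7 of 8 genes lay above 0 in each genotype, with medians of 0.10 and 0.13.

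Insig1 and Srebf2, the genes whose ratios lay on opposite sides of 0 in the 2 genotypes, were less even. Insig1 in the libraries labelled KO was lower with ISO in the macrophage-like cluster (−0.52, −0.83 to −0.22), and its intervals in the other 6 clusters with enough UMIs spanned 0. In WT its intervals spanned 0 in all 7 clusters. At equal proportions its ratios were 0.18 in WT and −0.06 in the libraries labelled KO. For Srebf2, no interval within a cluster lay above or below 0 in either genotype, and at equal proportions the ratios were −0.03 and 0.17.

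**Figure D4:**
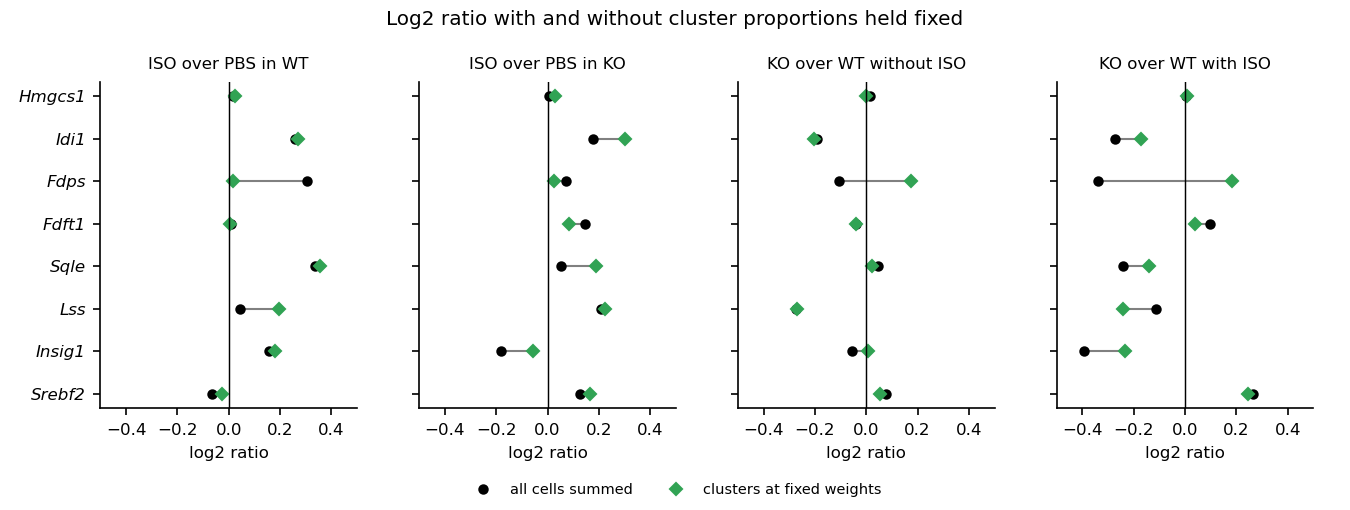
Log2 ratio of each gene over all cells (black circles) and with the 8 clusters held at the same proportions in every library (green diamonds), for the 4 comparisons. Fdps moved from 0.30 to 0.02 for ISO in WT and from −0.34 to 0.18 for KO over WT with ISO, whereas Sqle and Idi1 in WT stayed near 0.34 and 0.26.

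The comparison of the libraries labelled KO with WT, which share their treatment but not their label, also gave 0 of 8 genes past the fold. Without ISO, 5.21% of 11968 genes were past the fold higher and 3.58% lower, and with ISO 13.4% of 11714 higher and 10.2% lower. Directions are between libraries as labelled. In each of these comparisons 3 of the 8 genes lay above 0, against 48.5% of all genes without ISO and 49.1% with ISO. Without ISO, Idi1 (−0.19, −0.32 to −0.07) and Fdps (−0.11, −0.14 to −0.07) were lower in the library labelled KO, and the intervals of the other 6 spanned 0. With ISO, Insig1 (−0.40, −0.57 to −0.22), Fdps (−0.34, −0.37 to −0.31), Idi1 (−0.27, −0.40 to −0.15) and Sqle (−0.24, −0.37 to −0.11) were lower and Srebf2 was higher (0.27, 0.17 to 0.36). The sum over the 8 was −0.08 without ISO and −0.24 with ISO, and without Fdps −0.02 and −0.03, with intervals that spanned 0.

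For Fdps the genotype comparison turned its direction at equal cluster proportions, to 0.17 without ISO and 0.18 with ISO. Without ISO, Fdps was higher in the library labelled KO in 7 of 8 clusters, with intervals above 0 in 6, among them the Mpo cluster (1458 against 1323 CPM) and the Camp cluster (1205 against 1032). With ISO it was higher in 6 of 8, with intervals above 0 in 5, among them the Ltf cluster (694 against 516 CPM, log2 ratio 0.43) and, at a low level, the Gpnmb cluster (109 against 69.3 CPM, log2 ratio 0.66). It was lower in the Stfa2 cluster (676 against 732 CPM). For Idi1 (−0.20 and −0.17), Insig1 (0.01 and −0.23), Sqle (0.02 and −0.14) and Srebf2 (0.05 and 0.25) the ratios at equal proportions, without and with ISO, kept the sign over all cells except for Insig1 without ISO. In the Mpo cluster with ISO, the sum of the 7 genes without Fdps was 223 CPM in the library labelled KO and 311 in WT (−0.48, −0.67 to −0.30). The value of KO+ISO rests on 56 cells and 290 UMIs of these genes. This ratio was the lowest of 8 clusters, of which 3 lay above 0. The Gpnmb cluster had an interval above 0 (0.26, 0.0040 to 0.51), and the remaining intervals spanned 0.

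The other genes of the route were read from lists that named them by function. Of 15 further enzymes of sterol synthesis, 15 lay above 0 with ISO in WT, with a median of 0.24, and 12 of 15 in the libraries labelled KO, with a median of 0.11. None was past the fold (0 of 15 in each). In WT the highest were Nsdhl (0.37), which demethylates sterols, Acat2 (0.37), which feeds the route with acetoacetyl-CoA, Tm7sf2 (0.35), Hsd17b7 (0.35) and Lbr (0.34), reductases of later sterols. At equal cluster proportions the 15 enzymes kept 15 of 15 above 0 in WT (median 0.24) and had 13 of 15 in the libraries labelled KO (median 0.12). Lbr in WT was then at 0.08 in place of 0.34. Nsdhl had 0.30, Acat2 0.33, Tm7sf2 0.41 and Hsd17b7 0.34.

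The genes that process SREBP lay on the other side of 0 in WT. All 6 were below 0 with ISO (median −0.15) and none was past the fold, and in the libraries labelled KO 3 of 6 were above 0. Scap, the escort of SREBP, was at 8.98, 7.65, 6.62 and 5.58 CPM in WT+PBS, WT+ISO, KO+PBS and KO+ISO, with ISO ratios of −0.23 and −0.25 whose intervals spanned 0. Srebf1, the relative that favours fatty acid genes, was at 19.96, 17.01, 20.7 and 22.7 CPM, with −0.23 (−0.41 to −0.05) in WT and 0.14 (−0.04 to 0.32) in the libraries labelled KO.

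Of 8 genes for LDL uptake and sterol transport, 7 had enough UMIs for a ratio. In each genotype 5 of 7 lay above 0 with ISO and 0 were past the fold, with medians of 0.12 and 0.01. Tmem97, which acts on the transport protein NPC1, had the highest ratio in WT (0.41, 0.31 to 0.51) and 0.01 in the libraries labelled KO. At equal cluster proportions Tmem97 had 0.26 and 0.14. Of 9 genes of the non-sterol branch, which makes dolichol, ubiquinone and prenyl groups, 5 lay above 0 in WT and 2 in the libraries labelled KO, and 0 were past the fold.

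With ISO, the ratios past the fold were those of efflux genes and, in the libraries labelled KO, of 1 fatty acid gene. Abca1 was at 12.5 CPM in WT+PBS (304 UMIs), 3.98 in WT+ISO (117 UMIs), 17.1 in KO+PBS and 13.2 in KO+ISO. Its log2 ratio with ISO was −1.65 in WT (−1.97 to −1.33) and −0.38 in the libraries labelled KO (−0.60 to −0.15). The macrophage-like cluster gave 71.8% to 92.8% of its UMIs in each library, and it was 18.6% of WT+PBS by cell number against 12.4% of WT+ISO. Within that cluster WT+PBS had 37.0 CPM and WT+ISO 16.0, a ratio of −1.21, and 39.5 and 31.6 in the libraries labelled KO, a ratio of −0.32. At equal cluster proportions the ratio was −0.69 in WT and −0.18 in the libraries labelled KO. The step from −1.65 to −0.69 mixes cluster proportions with the change to weights by cells. Their parts were not tested.

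Abcg1 was at 68.7, 40.3, 95.4 and 80.0 CPM, with −0.77 in WT (−0.88 to −0.66) and −0.25 in the libraries labelled KO (−0.35 to −0.16). It was −0.44 at equal cluster proportions in WT, short of the fold, and −0.24 in the libraries labelled KO. It was below 0 in 7 of the 7 clusters with enough UMIs in each genotype. In WT, 2 of the 6 efflux genes with enough UMIs were past the fold, both lower, and in the libraries labelled KO 2 of 7, Nr1h3 (−0.52, from 72 UMIs in KO+PBS and 34 in KO+ISO) and Apoe (−0.51), also lower. The interval of Nr1h3 spanned 0. Neither was past the fold at equal cluster proportions (−0.25 for Nr1h3 and −0.38 for Apoe). Of 9 fatty acid genes, 0 were past the fold in WT. Acss2, which makes acetyl-CoA from acetate, was past it in the libraries labelled KO (0.55, 0.27 to 0.83), at 7.53 CPM in KO+PBS and 11.0 in KO+ISO, and was at 0.36, short of the fold, at equal cluster proportions.

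With ISO, 14 of these listed genes differed past the fold between the libraries labelled KO and WT. By list these were 3 of 15 further sterol enzymes, 0 of 6 SREBP processing genes and 2 of 7 uptake genes. Further ones were 1 of 9 non-sterol genes, 4 of 7 efflux genes and, of 9 fatty acid genes, 1 higher and 3 lower. Among all genes, 23.6% were past the fold in this comparison, against 11.0% for ISO in WT and 4.82% in the libraries labelled KO. Over these lists together, the share of genes past the fold was near that 23.6%. The count of 14 alone therefore does not set the listed genes apart from all genes. Among those lower in the library labelled KO were Hsd17b7 (−0.72), Lbr (−0.66) and Dhcr7 (−0.62) among the 15 further sterol enzymes, Tmem97 (−0.79) among the uptake genes, Coq2 (−0.64) in the non-sterol branch, and Fasn (−0.77), Elovl6 (−0.54) and Fads2 (−0.52) among the fatty acid genes. Higher were Ch25h (2.90, from 12 UMIs in WT+ISO), Abca1 (1.73), Abcg1 (0.99), Apoe (0.67) and Acss2 (0.52). The macrophage-like cluster was 12.4% of the cells of WT+ISO and 24.0% of KO+ISO. At equal cluster proportions 7 of the 14 listed genes past the fold stayed past it. These were Hsd17b7 (−0.65), Fasn (−0.63), Elovl6 (−0.56), Ch25h (2.09), Apoe (0.68), Abca1 (0.51) and Acss2 (0.51). Among those short of it were Lbr (−0.31), Dhcr7 (−0.25), Tmem97 (−0.33), Coq2 (−0.45), Fads2 (−0.35) and Abcg1 (0.37). Without ISO, Ch25h (1.21) and Apoe (0.95) were past the fold, and both stayed past it at equal proportions (0.90 each). With ISO the libraries differed also in cell-cycle transcripts: of 12 S-phase genes all 12 were lower in the library labelled KO (median −0.54), and of 12 G2/M genes 11 were (median −0.33). The part of the cell cycle in these differences was not tested.

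**Figure D5:**
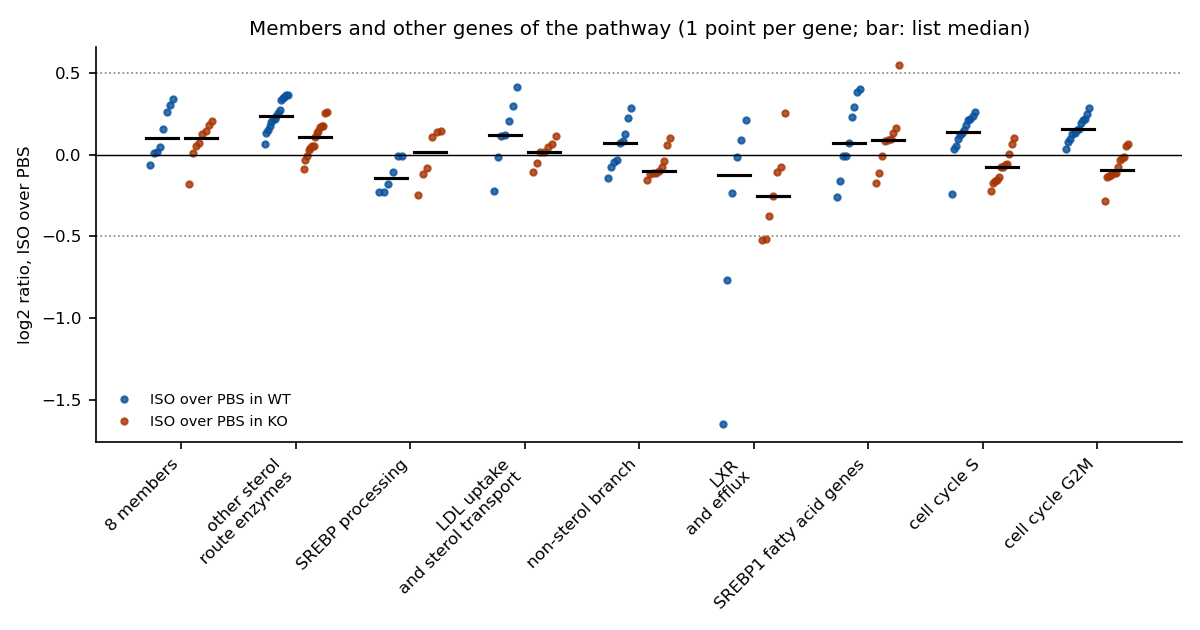
Log2 ratio of ISO over PBS (vertical axis) for every gene with at least 50 UMIs, 1 point per gene, in the 8 members and 8 other lists, in WT and in the libraries labelled KO. Black bars are list medians and dotted lines mark the fold of 0.5. The 15 further sterol enzymes all lay above 0 in WT, the 6 SREBP processing genes all lay below 0 in WT, and Abca1 was lowest at −1.65.

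The 8 genes were then compared across 34 points, each the summed cells of a cluster in a library (9 clusters). Across these points the log2 level of each gene was correlated with the mean of the other 7. Pearson's r was 0.86 for Fdft1, 0.81 for Idi1, 0.76 for Insig1, 0.74 for Sqle, 0.70 for Lss, 0.60 for Fdps, 0.42 for Hmgcs1 and −0.14 for Srebf2. These are descriptions, since points share their library, their cluster and their depth, and the mean of the 8 had r = 0.84 with the log2 UMIs per cell of the same points.

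The 10 genes most alike to the mean of the 8, among 10169 compared (median r 0.07), were Cdca3 (0.93), Nsdhl (0.92), Mvd (0.92), Knstrn (0.91), Cenpf (0.91), Ccnb2 (0.91), Ccna2 (0.90), Cdca8 (0.90), Ccnb1 (0.90) and Pimreg (0.90). Nsdhl and Mvd are enzymes of the sterol route, and the other 8 are genes of mitosis and the G2/M phase. The summed level of the 12 G2/M genes had r = 0.90 with the mean of the 8, but not every gene followed it. By gene, r with that sum was 0.85 for Fdps, 0.80 for Fdft1, 0.77 for Sqle and 0.73 for Idi1. It was 0.70 for Lss, 0.66 for Insig1, 0.28 for Hmgcs1 and −0.21 for Srebf2. With the log2 UMIs per cell of the same points, r was 0.87 for Idi1, 0.85 for Sqle, 0.78 for Lss and 0.72 for Insig1. For Fdft1 it was 0.70, for Fdps 0.65, for Hmgcs1 0.14 and for Srebf2 −0.28. The parts of depth and of the cell cycle in these values were not tested. Of the listed genes, Stard4, a sterol carrier, had r = 0.90 with the mean of the 8, and Fads2 had 0.90. Mylip, a ubiquitin ligase induced by liver X receptors, had −0.82. In the list of liver X receptor and efflux genes the values were weaker or of the other sign. They were −0.57 for Abcg1, −0.33 for Nr1h2, −0.28 for Abca1, −0.26 for Soat1 and 0.21 for Apoe. In WT, 12 of 12 G2/M genes and 11 of 12 S-phase genes lay above 0 with ISO (medians 0.15 and 0.14), and in the libraries labelled KO 2 and 3 did (−0.09 and −0.08). At equal cluster proportions the WT medians were 0.04 and 0.05, and the part of cell-cycle transcripts in the ratios of the 8 genes was not tested.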

How the data were processed

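Single-cell RNA sequencing was analysed in 4 libraries, 1 per group. The authors deposited UMI counts without normalization, made with Cell Ranger (7.0.0 in the file header, 6.0.0 in the submitters' processing notes, which also list mm10 and Seurat). The rule that assigned barcodes to samples is not given in the sources used here. The 12 multiplexing tags were not used.

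Of 9525 cells, 9303 were kept (200 or more genes, mitochondrial UMIs up to 10%). Scrublet called 17 doublets (0.183%, against 6% expected), too few to rely on the caller, and these were kept. Clusters came from scanpy 1.11.5 and the Leiden method (2000 variable genes, 30 components, 15 neighbours, resolution 0.4, seed 0), and were named where 3 markers were found in 10% of cells, their mean log2 ratio reached 1 and one stood among the 10 leading genes. CPM has exact Poisson intervals and ratios exact conditional binomial intervals. Differences of log2 ratios have normal-approximation intervals. The ratio intervals were run on counts simulated from the Poisson model on which they rest, which checks the code alone. Spread between cells is not part of that model.

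The 8 genes, lists, naming rule and resolution were chosen with earlier results of these data known. Named by rule were the 8 genes, Srebf1, Scap, listed genes past the fold in either ISO comparison and the 10 genes most alike. Other listed genes were chosen after their values were seen. Some genes of the rule and the check of the KO label are not reported here. Positions come from GRCm38.p6.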

Additional observations from a re-analysis of the deposited data

Results flagged for a closer look

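Members whose ISO log2 ratio had opposite signs in the WT libraries and in the libraries labelled KO were Insig1 and Srebf2. For Insig1 the ratio was 0.16 in WT and −0.18 in the libraries labelled KO, a difference of 0.34, and both counting intervals excluded 0. For Srebf2 the ratio was −0.06 in WT, with an interval that spanned 0, and 0.13 in the libraries labelled KO, a difference of −0.19. With 1 library per group these differences between genotypes were not tested.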

How the results depend on the processing

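No paired analysis was possible because the 4 groups hold 1 library apiece, so no library could be left out in turn either. The log2 ratio of the 8 genes summed, ISO over PBS in WT (0.24), was 0.29 with median-of-ratios size factors, 0.28 with totals without the 20 most abundant genes, 0.050 with clusters at fixed weights, 0.31 with equal weight per cell, 0.29 in thinned cells, 0.13 as the mean of the genes' own ratios and 0.10 without Fdps. In the libraries labelled KO (0.08) it was 0.11 without the 20 most abundant genes and 0.12 in thinned cells. The difference, WT minus KO (0.16), turned to −0.013 with clusters at fixed weights, and was 0.23 with equal weight per cell, 0.058 as the mean of the genes' own ratios and 0.013 without Fdps. KO over WT without ISO (−0.08) turned to 0.11 with clusters at fixed weights, 0.050 with equal weight per cell and 0.044 in thinned cells, and was −0.018 without Fdps. KO over WT with ISO (−0.24) turned to 0.12 with clusters at fixed weights, and was −0.18 with equal weight per cell, −0.13 in thinned cells, −0.12 as the mean of the genes' own ratios and −0.032 without Fdps. An alternative added after the data were seen, without Fdps and with clusters at fixed weights, gave 0.11 for ISO in WT, 0.14 in the libraries labelled KO, −0.027 for their difference, −0.020 for KO over WT without ISO and 0.0069 with ISO. The count of genes past the fold in WT (0) was 1 in thinned cells (Insig1, 0.60) and 3 at a fold of 0.25. Fixed weights for the listed genes past the fold were also chosen after the data were seen and left 1 of 2 past it for ISO in WT, 0 of 3 in the libraries labelled KO, 2 of 2 for KO over WT without ISO and 7 of 14 with ISO. Fixed weights and the removal of Fdps change what is summed by construction, and for the other settings the cause was not tested. Among ISO over PBS ratios of single genes under these settings, 114 stayed within the counting interval and 14 moved beyond it. Of these ISO ratios, 0 reversed where the interval excluded 0. Single genes were not counted in this way for KO over WT. There Fdps turned with clusters at fixed weights, from −0.11 to 0.17 without ISO and from −0.34 to 0.18 with ISO. Counts of 162 to 266 UMIs per library limit Lss. Thinned cells gave −0.25 and −0.49 for it.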

Other observations

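Within clusters, Fdps was also set against G2/M transcripts cell by cell, a split chosen after the data were seen. After thinning to 2000 UMIs, cells with at least 3 UMIs of the 12 G2/M genes were compared with cells with 0 in the same cluster and library. The split cuts a range and not a cell type, and cells with 1 or 2 such UMIs were left out. At least 20 cells were needed in both ranges of a cluster and library. Only the Ltf, Stfa2 and macrophage-like clusters had them. The Mpo, Camp and Kcnq5 clusters, the highest in Fdps, were not compared. In the specific-granule neutrophil-like cluster with Ltf (101 cells against 1318, with 205 between), Fdps was at 1071 CPM against 490 in WT+PBS, 727 against 414 in WT+ISO, 1056 against 524 in KO+PBS and 900 against 587 in KO+ISO. The upper range of this cluster held 20 to 33 cells per library. The log2 ratio was 0.62 to 1.13, above 0 in 4 of 4 libraries with intervals that excluded 0. In the cluster marked by Stfa2 it was above 0 in 3 of 4 libraries (−0.17 to 0.71). In the macrophage-like cluster it was above 0 in 1 of 4 (−0.96 to 0.32). The sum of the 7 other genes had 0.10 to 0.53 in the Ltf cluster, −0.53 to 0.35 in the Stfa2 cluster and −0.27 to 0.34 in the macrophage-like cluster. Free RNA and doublets can place UMIs of both kinds in 1 droplet, and their part was not tested.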
